A study of Drosophila melanogaster with 20 samples.

Results

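Fmr1, CAH7, gammaSnap2 and nerfin-2 are protein-coding genes that lie beside mir-34 on chromosome arm 3R of Drosophila melanogaster, and their signals were read from arrays of brains with and without miR-34. Every probe set whose platform gene symbol was exactly one of these names was taken, which gave 5 probe sets of 4 genes out of 18952 on the array. Fmr1 had 2 probe sets and the other 3 genes had 1 each. Total RNA of dissected brains was hybridised to Affymetrix Drosophila 2 arrays, one colour, with 1 biotin-labelled sample per array. There were 4 groups of 5 arrays: miR-34 null (line label 0110) at 20 d, wildtype (line label 5905) at 20 d, miR-34 null at 3 d and wildtype at 3 d, all raised on cornmeal molasses medium and aged without further treatment. The allele that removes miR-34 is not described in the labels, and each genotype carries a single line label, so an effect of losing miR-34 and any further difference of line 0110 from line 5905 cannot be told apart. Whether the 5 arrays of a group come from separate flies is not stated in the labels, and the p-values therefore cover the spread among these samples alone, which may be technical. No probe set carried the name mir-34, and the null genotype was therefore not checked from the arrays.

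MicroRNAs such as miR-34 pair with messenger RNAs and lower their output, and in flies miR-34 is known from work on the ageing brain. Fmr1 encodes FMRP, an RNA-binding protein that represses translation of its target mRNAs; its loss in humans causes fragile X syndrome, and in flies it alters synapses, sleep and learning. CAH7 belongs to the carbonic anhydrase family, enzymes that interconvert carbon dioxide and bicarbonate. gammaSnap2 encodes a gamma soluble NSF attachment protein (SNAP); SNAP proteins bring the ATPase NSF to SNARE complexes, which NSF takes apart after membrane fusion. nerfin-2 is a zinc-finger gene related to nerfin-1, a transcription factor of nascent neurons.

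In the gene order of the RefSeq assembly Release 6 plus ISO1 MT, mir-317, lncRNA:CR43459, mir-277, mir-34, Fmr1, CAH7 and gammaSnap2 follow one another. Fmr1 is thus the next gene after mir-34, then CAH7 and then gammaSnap2. nerfin-2 lies on the other side, as the 6th listed gene before mir-34 and the 2nd that has a probe set. The table was used for names and order alone, because no source used here states the build behind the array.

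The deposited signals were linear, with a median of 19.1 to 25.0 units on the 20 arrays, and arrays of 1 group correlated at Pearson's r of at least 0.989 over the 9806 probe sets tested. Differences are on the scale log2(signal + 16), each from 1 limma model of all 20 arrays, and a probe set is called where its Benjamini-Hochberg adjusted p is under 0.05. Marker genes of neurons (14 of 15 with a probe set) summed to 9254 to 11096 units in null brains and 9306 to 10204 units in wildtype brains at 20 d, and to 11393 to 12823 in null brains and 11373 to 12258 in wildtype brains at 3 d. Summed markers of glia (9 of 10 with a probe set) overlapped between the lines at both ages. Summed markers of the remaining tissues did not overlap at either age, except gut markers at 20 d and haemocyte markers at 3 d. The part of these tissues in the results below was not tested. Photoreceptor markers (7 of 14 with a probe set) summed to 4447 to 4952 units in null brains against 6772 to 7291 in wildtype brains at 20 d, and to 4473 to 4999 against 6580 to 6826 at 3 d. Fat body markers (11 of 12) summed to 4312 to 4688 units in null against 7486 to 7805 in wildtype at 20 d, and to 3479 to 3585 against 4189 to 4414 at 3 d. Muscle markers (13 of 17) summed to 1713 to 1775 units in null against 1455 to 1523 in wildtype at 20 d, and to 1798 to 1886 against 1068 to 1109 at 3 d. Haemocyte markers (12 of 12) summed to 3350 to 3431 units in null against 2941 to 3069 in wildtype at 20 d, and to 3550 to 3721 against 3504 to 3613 at 3 d. Single haemocyte markers did not all follow this sum. Of the 12, 4 were called higher in null and 4 lower at 20 d, and 1 higher and 3 lower at 3 d. Gut markers (10 of 12) summed to 94.9 to 116 units in null against 86.2 to 97.2 in wildtype at 20 d, and to 2127 to 2230 against 145 to 163 at 3 d. Of 6 gut markers tested, 3 were higher in null and 2 lower at 20 d, and 6 higher at 3 d. Of 12 muscle markers tested, 9 were higher and 3 lower at 20 d, and 11 higher and 0 lower at 3 d. Of 9 fat body markers tested, 1 was higher and 7 lower at 20 d, and 2 higher and 5 lower at 3 d. Over all tested probe sets 20.9% were higher and 24.6% lower at 20 d, and 15.4% and 18.4% at 3 d. In bulk tissue, fewer cells of a type and less RNA per cell cannot be told apart.

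The brighter of the Fmr1 probe sets (1634028_s_at) was higher in null than in wildtype brains at both ages, by 28.6% at 20 d and by 22.1% at 3 d. At 20 d it read 1010.5, 971, 1044, 958 and 945 units on the 5 null arrays, with a mean of 985.7 ± 40.6 (SD, n = 5), against 754, 729, 739, 815 and 795 units on the wildtype arrays, with a mean of 766 ± 37.0 (SD, n = 5). At 3 d it read 916, 823, 903, 1025 and 1065 units on the null arrays, with a mean of 946 ± 97.7 (SD, n = 5), against 732, 762, 806, 801 and 772 units on the wildtype arrays, with a mean of 775 ± 30.5 (SD, n = 5). Every null array read above every wildtype array at either age, as was the case in one direction or the other for 33.1% of tested probe sets at 20 d and for 24.3% at 3 d. The 3 d null arrays were the most spread of the 4 groups, and their lowest value, 823 units, stood next to the highest 3 d wildtype value, 806 units.

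The fitted difference of this Fmr1 probe set, null minus wildtype, was 0.36 ± 0.053 log2 units at 20 d (SE, 95% interval 0.25 to 0.47, limma adjusted p = 6.56e-06). At 3 d it was 0.28 ± 0.053 (95% interval 0.17 to 0.39, limma adjusted p = 0.00022). It was the 1 member probe set of the 4 tested that was called between the genotypes, at 20 d and at 3 d alike. Such calls were common on these arrays: 45.5% of tested probe sets were called at 20 d and 33.8% at 3 d, where 20.9% were higher in null at 20 d, 15.4% at 3 d and 10.1% at both ages. In size the Fmr1 difference exceeded that of 84.9% of tested probe sets at 20 d and of 84.8% at 3 d. Of the 14 neuron markers, 4 were also called higher in null and 0 lower at each age, and their median differences were 0.093 at 20 d and 0.058 at 3 d; the part of this in the Fmr1 difference was not tested.

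**Figure D1:**
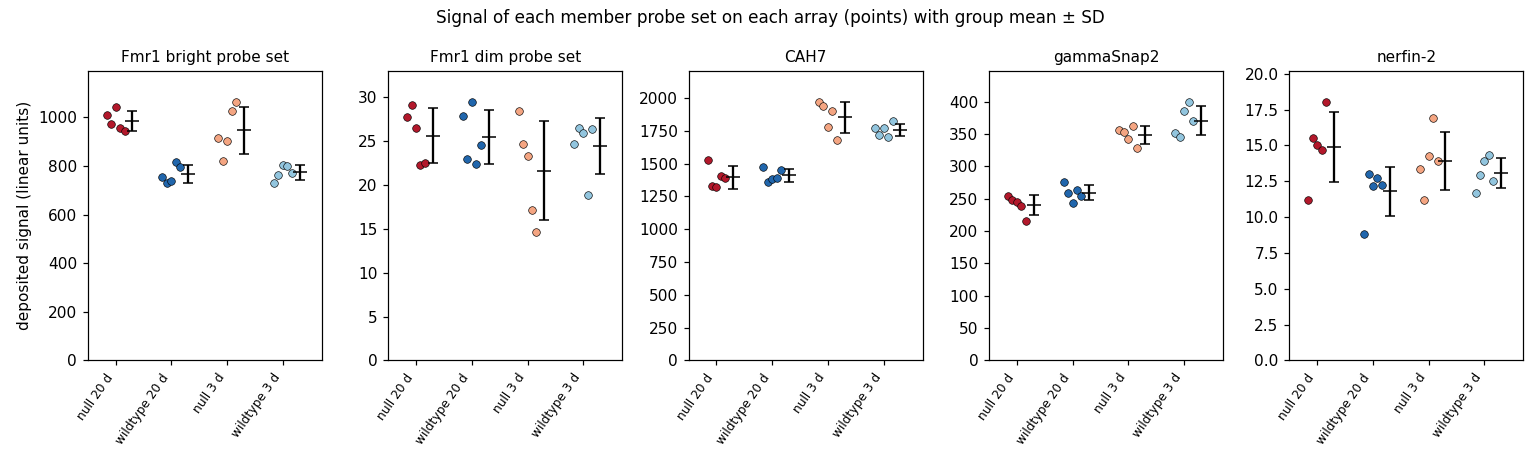
Deposited signal in linear units of the 5 member probe sets, with 1 point per array and the group mean ± SD (n = 5) beside the points, for null 20 d, wildtype 20 d, null 3 d and wildtype 3 d. The bright Fmr1 probe set separates the genotypes at each age, while CAH7 and gammaSnap2 separate the ages.

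Age was not seen to change Fmr1. The bright probe set differed by 0.063 ± 0.053 log2 units between 20 d and 3 d in null brains (95% interval -0.048 to 0.17, limma adjusted p = 0.325), and 58.0% of tested probe sets were called in that comparison. In wildtype brains the difference was -0.016 ± 0.053 (95% interval -0.13 to 0.095, limma adjusted p = 0.821), against 55.6% called. The groups overlapped in both comparisons, and 29.4% of tested probe sets were, like this one, called in neither. Quantile normalization gave 0.16 in null brains, which was called (limma adjusted p = 0.0187), and 0.054 in wildtype brains, which was not. The interaction, which takes the age change of wildtype from that of null, was 0.079 ± 0.076 (95% interval -0.078 to 0.24, limma adjusted p = 0.557), so a different Fmr1 excess at 20 d and at 3 d was not detected; 17.0% of tested probe sets were called there.

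The dimmer Fmr1 probe set (1632612_s_at) was not called in any comparison. It read 27.8, 29.1, 26.5, 22.2 and 22.5 units on the 20 d null arrays, against 27.9, 23.0, 29.5, 22.4 and 24.6 units on the 20 d wildtype arrays. At 3 d it read 28.4, 24.7, 23.3, 17.2 and 14.7 units on the null arrays, against 24.7, 26.5, 26.0, 18.9 and 26.4 units on the wildtype arrays. The genotypes overlapped over nearly their whole range at 20 d, and the lowest 3 d values came from 2 null arrays. These values lay close to the array median, which the probe set exceeded on 5 of 5 null and 3 of 5 wildtype arrays at 20 d, and on 3 of 5 null and 4 of 5 wildtype arrays at 3 d.

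The null minus wildtype difference of the dim probe set was 0.0053 log2 units at 20 d (95% interval -0.17 to 0.19, limma adjusted p = 0.969). At 3 d it was -0.11 (95% interval -0.29 to 0.067, limma adjusted p = 0.349). With age it differed by 0.15 in null brains (95% interval -0.026 to 0.33, limma adjusted p = 0.133) and by 0.036 in wildtype brains (95% interval -0.14 to 0.22, limma adjusted p = 0.749). Without replicate 1 of the 3 d null arrays the age difference in null brains was 0.22 and was called (limma adjusted p = 0.0347).

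The genotype differences of the 2 Fmr1 probe sets were set against each other per array, as the log2 signal of the bright one minus that of the dim one. The dim signals lay so near the array median that the added 16 units compress their differences, which limits this measure. At 20 d null exceeded wildtype by 0.35 in this measure, the groups did not overlap, and the exact two-sided permutation p was 0.00794, the smallest that 5 against 5 arrays can give (0.0159 adjusted over the 2 ages). At 3 d the difference was 0.39 and the groups overlapped, with an exact permutation p of 0.0476 (0.0476 adjusted); the adjusted p was no longer under 0.05 in 7 of 10 tests that left out 1 array of these groups, and the difference ran from 0.31 to 0.48 over the other settings. Over the 20 arrays the 2 probe sets had a Pearson's r of -0.34, and of -0.55 after the group means were taken out, as a description of arrays that share labelling and scaling. The part of the Fmr1 transcript that each probe set reads was not looked up here.

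**Figure D2:**
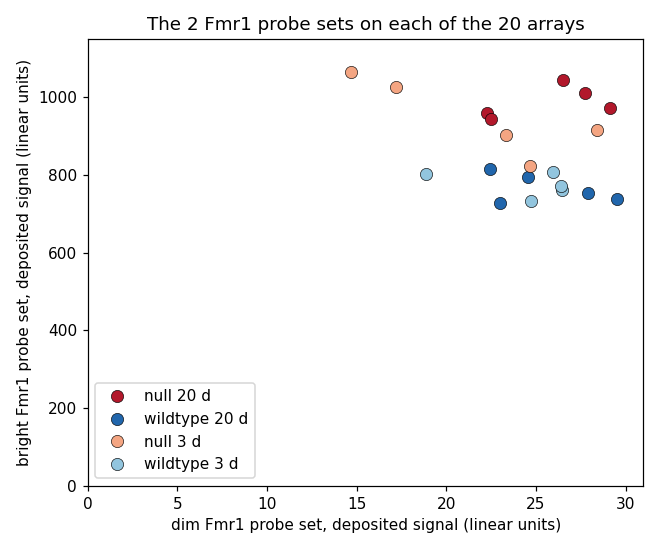
Signal of the bright Fmr1 probe set (vertical, linear units) against that of the dim one (horizontal, linear units), with 1 point per array. The 10 null arrays lie above the 10 wildtype arrays on the vertical axis, and the groups are mixed on the horizontal axis.

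Genes that work with FMRP showed few genotype differences where measured, and 17 of 27 listed names were measured. AGO1, AGO2 and Dcr-1 were among those not measured. Of 17 measured genes for FMRP partners and ribonucleoprotein components, 1 was higher and 2 were lower in null at 20 d, and 1 was higher and 1 was lower at 3 d. Their median difference was 0.015 at 20 d and -0.03 at 3 d, beside -0.0088 and -0.011 over all tested probe sets, of which 20.9% were higher and 24.6% lower at 20 d, and 15.4% higher and 18.4% lower at 3 d. Atx2, the fly ataxin-2 and a partner of FMRP in translational control, was higher in null brains by 0.31 ± 0.062 at 20 d (SE, limma adjusted p = 0.000242) and by 0.22 ± 0.062 at 3 d (limma adjusted p = 0.00853). Its mean signal was 722 ± 56.2 units in null and 579 ± 19.5 in wildtype brains at 20 d (SD, n = 5 each). rin, the fly G3BP of stress granules, was lower in null at 20 d, with a difference of -0.20 ± 0.047 (limma adjusted p = 0.00101). stau, a double-stranded RNA-binding protein of RNA transport, had a difference of -0.15 at 20 d, and Hrb87F, an hnRNP, had one of -0.18 at 3 d.

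Transcripts reported as FMRP targets in Drosophila gave 3 higher and 1 lower of 14 measured in null at 20 d, and 2 higher and 1 lower at 3 d. Of all tested probe sets, 20.9% were higher and 24.6% lower at 20 d, and 15.4% higher and 18.4% lower at 3 d. hts, the adducin of the membrane skeleton, had mean signals of 667 ± 15.8 units in null and 508 ± 50.6 in wildtype brains at 20 d (SD, n = 5 each), a difference of 0.39 ± 0.052 log2 units (limma adjusted p = 1.59e-06). At 3 d hts differed by 0.26 (limma adjusted p = 0.000371). shrb, an ESCRT-III subunit, differed by 0.20 at 20 d, and jeb, the secreted ligand of the receptor Alk, by 0.34 at 3 d. With age 4 of the 14 rose and 4 fell in each genotype, where 32.0% of all tested probe sets rose and 26.0% fell in null, and 30.7% rose and 24.8% fell in wildtype. Arc1, which encodes a capsid-forming protein of synapses, rose by 0.70 ± 0.052 in null and by 0.59 ± 0.052 in wildtype brains (SE, limma adjusted p = 5.05e-11 and 1.12e-09), and cher, a filamin, rose by 0.55 and 0.59. futsch, a microtubule-associated protein and a known FMRP target, was lower at 20 d than at 3 d, at -0.31 in null and -0.23 in wildtype brains, with the wildtype call lost under quantile normalization, and was not called between the genotypes at either age.

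Genes reported to interact genetically with fragile X in flies gave 4 higher and 0 lower of 16 measured in null at 20 d, and 3 higher and 2 lower at 3 d. Over all tested probe sets 20.9% were higher and 24.6% lower at 20 d, and 15.4% higher and 18.4% lower at 3 d, so the share higher was near that of the arrays as a whole. The median difference of the 16 was 0.10 at 20 d and 0.014 at 3 d. Rdl, a GABA-A receptor subunit that is also on the neuron marker list, differed by 0.42 ± 0.055 at 20 d and by 0.36 ± 0.055 at 3 d (SE, limma adjusted p = 8.73e-07 and 1.13e-05). trol, the fly perlecan, differed by 0.34 at 20 d and by 0.18 at 3 d, and dlp, a glypican, by 0.27 at 20 d. Akt, the kinase of insulin signalling, was the 1 gene of the 16 called in the interaction, at 0.19 ± 0.052 (limma adjusted p = 0.0124). Among all tested probe sets 17.0% were called in the interaction.

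CAH7 was lower at 20 d than at 3 d in both lines and did not differ detectably between them. It read 1532, 1328, 1319, 1407 and 1390.1 units on the 20 d null arrays, with a mean of 1395 ± 85.2 (SD, n = 5), against 1972, 1937, 1777, 1898 and 1683 units on the 3 d null arrays, with a mean of 1853 ± 120.4 (SD, n = 5). In wildtype it read 1473, 1363, 1379.9, 1388 and 1449 units on the 20 d arrays, with a mean of 1411 ± 47.8 (SD, n = 5), against 1775, 1718, 1769.6, 1704 and 1823 units on the 3 d arrays, with a mean of 1758 ± 48.0 (SD, n = 5). Every 20 d array read below every 3 d array of its line, as was the case in one direction or the other for 39.5% of tested probe sets in null and 44.3% in wildtype.

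The fitted change of CAH7 with age was -0.41 ± 0.045 log2 units in null brains (SE, 95% interval -0.50 to -0.31, limma adjusted p = 5.79e-08). In wildtype brains it was -0.31 ± 0.045 (95% interval -0.41 to -0.22, limma adjusted p = 2.94e-06). CAH7 and gammaSnap2 were the 2 member probe sets of the 4 tested that fell in each line; 26.0% of tested probe sets fell in null, 24.8% fell in wildtype, and 17.8% fell in both. The size depended on scaling, with quantile normalization giving -0.26 in null and -0.16 in wildtype, both still called. The neuron marker sums moved the same way with age, with 10 of 14 markers lower at 20 d in null and 11 of 14 in wildtype, at median differences of -0.30 and -0.34; the part of this in the fall of CAH7 was not tested.

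Between the genotypes CAH7 differed by -0.017 ± 0.045 at 20 d (95% interval -0.11 to 0.077, limma adjusted p = 0.792). At 3 d null minus wildtype was 0.074 ± 0.045 (95% interval -0.020 to 0.17, limma adjusted p = 0.232). The 3 d null arrays held both the highest and the lowest CAH7 values of that age. The interaction was -0.091 ± 0.064 (95% interval -0.22 to 0.042, limma adjusted p = 0.396). Under quantile normalization the 3 d difference of 0.06 and the interaction of -0.0996 were called (limma adjusted p = 0.0444 and 0.0303).

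The carbonic anhydrases moved in both directions with age. Of 15 with a probe set 8 passed the filter, and with age 3 rose and 3 fell in null, and 3 rose and 3 fell in wildtype. Of all tested probe sets, 32.0% rose and 26.0% fell in null, and 30.7% rose and 24.8% fell in wildtype. CAH8 and CARPA fell beside CAH7: CAH8 by 0.41 in null and 0.35 in wildtype, and CARPA by 0.43 and 0.32. CAH2 rose by 0.58 ± 0.091 in null and by 0.45 ± 0.091 in wildtype brains (SE, limma adjusted p = 8.39e-06 and 0.000211). CAH3 rose by 0.33 in null and by 0.19 in wildtype, and the wildtype call was lost when arrays were centred on their medians. Between the genotypes CAH2 had the largest difference of the 8, at -1.05 ± 0.091 at 20 d and -1.19 ± 0.091 at 3 d (SE, limma adjusted p = 1.26e-09 and 1.79e-10). Its mean signal was 72.6 ± 15.1 units in null and 166 ± 11.5 in wildtype brains at 20 d, and 42.5 ± 2.11 in null and 118 ± 12.7 in wildtype brains at 3 d (SD, n = 5 each). CAH1 was lower in null, at -0.34 at 20 d and -0.18 at 3 d; its interaction of -0.16 was called (limma adjusted p = 0.0167), and that call was lost with median centring.

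gammaSnap2 was lower at 20 d than at 3 d in both lines. Its mean signal fell by 31.1% in null and fell by 30.0% in wildtype. It read 254, 249, 244, 239 and 215 units on the 20 d null arrays, with a mean of 240.2 ± 15.1 (SD, n = 5), against 356, 354, 342, 363 and 329 units on the 3 d null arrays, with a mean of 349 ± 13.6 (SD, n = 5). In wildtype it read 276, 259.6, 244, 264 and 254 units on the 20 d arrays, with a mean of 259.6 ± 11.8 (SD, n = 5), against 352, 346, 386, 399.9 and 369.7 units on the 3 d arrays, with a mean of 371 ± 22.7 (SD, n = 5). The highest of the 10 arrays at 20 d, 276 units, lay below the lowest of the 10 at 3 d, 329 units. Within a line, the ages did not overlap for 39.5% of tested probe sets in null and 44.3% in wildtype, in either direction.

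The fitted change of gammaSnap2 with age was -0.51 ± 0.047 log2 units in null (SE, 95% interval -0.61 to -0.41, limma adjusted p = 2.09e-09). In wildtype it was -0.49 ± 0.047 (95% interval -0.59 to -0.39, limma adjusted p = 5.32e-09). These exceeded in size the differences of 88.5% and 89.1% of tested probe sets, and their own difference was -0.023 ± 0.066 (95% interval -0.16 to 0.11, limma adjusted p = 0.869). Over the 9 other settings the change ranged from -0.60 to -0.44 in null and from -0.59 to -0.43 in wildtype, and it was called in each. The fall in neuron marker sums given beside CAH7 ran beside gammaSnap2 too. Of 9 glia markers 6 fell in each line, while 0 rose in null and 1 rose in wildtype. Over all tested probe sets 26.0% fell and 32.0% rose in null, and 24.8% fell and 30.7% rose in wildtype. Glia marker sums were 7803 to 8396 units at 20 d and 9794 to 10882 at 3 d in null, and 8244 to 9005 at 20 d and 10264 to 10624 at 3 d in wildtype; their part in the change was not tested.

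Between the genotypes gammaSnap2 was not called. Null minus wildtype was -0.11 ± 0.047 at 20 d (95% interval -0.20 to -0.0089, limma adjusted p = 0.0698), and the groups overlapped. It was called without replicate 1 of the 20 d null arrays (-0.13, limma adjusted p = 0.0432) and without replicate 3 of the 20 d wildtype arrays (-0.13, limma adjusted p = 0.0423). At 3 d the difference was -0.083 ± 0.047 (95% interval -0.18 to 0.014, limma adjusted p = 0.189).

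The other SNAP genes fell with age too. With gammaSnap2 counted, 3 of 3 measured genes of the NSF and SNAP list were lower at 20 d in each line. Of all tested probe sets, 26.0% were lower at 20 d in null, 24.8% in wildtype and 17.8% in both. These shares depended on scaling. With median centring 36.0% of age calls in null and 34.4% in wildtype were higher, against 55.2% and 55.3% without it. gammaSnap1, the paralog, had means of 922 ± 19.9 units at 20 d and 1277 ± 40.5 at 3 d in null, and of 985 ± 18.4 at 20 d and 1328 ± 14.8 at 3 d in wildtype (SD, n = 5 each). Its change with age was -0.46 in null and -0.42 in wildtype (limma adjusted p = 2.2e-12 and 1.19e-11). alphaSnap, the general SNAP of synaptic and other fusion, changed by -0.34 and -0.32. gammaSnap1 was also lower in null at 20 d, with a difference of -0.093 ± 0.029 (limma adjusted p = 0.0114), which median centring changed to -0.073 and no longer called. For comt and Nsf2, the NSF genes, no probe set was listed here.

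The SNAREs and their regulators, on which SNAPs act, moved in both directions. Of 16 measured, 2 rose and 7 fell with age in null, and 2 rose and 6 fell in wildtype, with median changes of -0.086 and -0.093. Over all tested probe sets 32.0% rose and 26.0% fell in null, and 30.7% rose and 24.8% fell in wildtype. Rop, the Sec1/Munc18 protein of synaptic exocytosis, fell by 0.64 ± 0.044 in null and by 0.50 ± 0.044 in wildtype brains (SE, limma adjusted p = 9.54e-12 and 9.53e-10). Snap25, a SNARE of the neuronal plasma membrane despite its name no relative of the SNAPs, fell by 0.28 in null and 0.36 in wildtype. cpx, complexin, fell by 0.36 and 0.29, and the wildtype call was lost under quantile normalization. Syb, the widely expressed synaptobrevin, rose by 0.45 and 0.39. Between the genotypes the largest differences were those of Membrin, a Golgi SNARE, at 0.41 at 20 d and 0.62 at 3 d, and of Snap24 at -0.30 and -0.37 and Snap29 at -0.31 and -0.28.

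**Figure D3:**
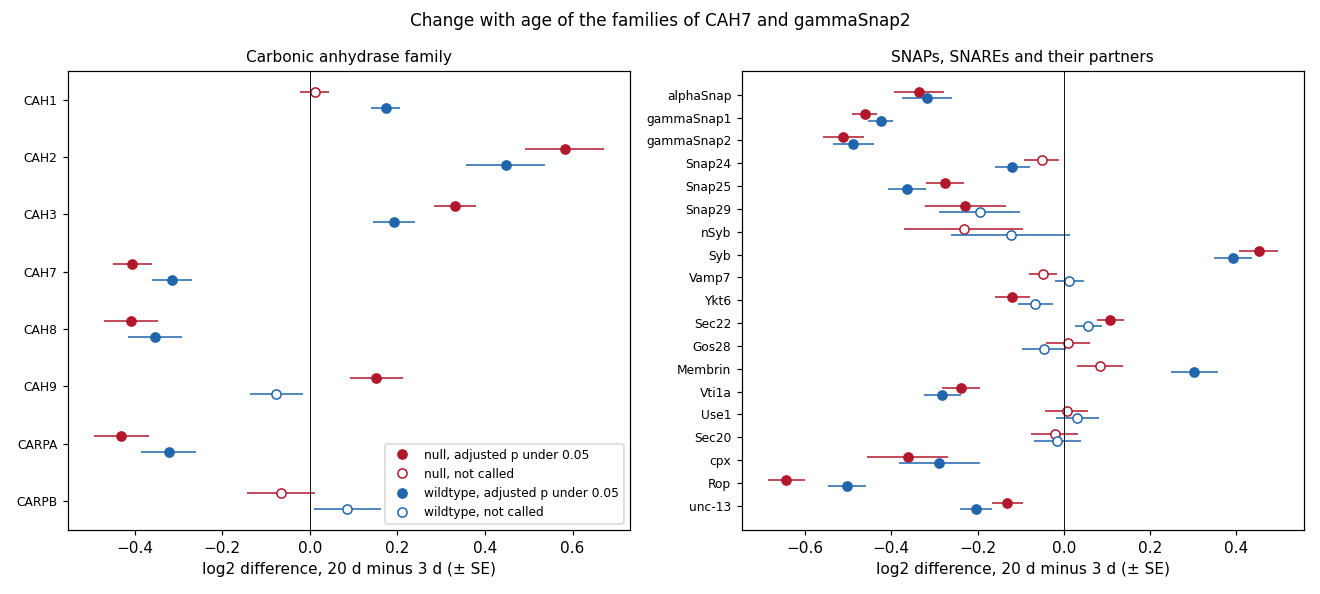
Log2 difference, 20 d minus 3 d, ± SE for the measured carbonic anhydrases (left) and for SNAPs, SNAREs and their partners (right), in null (red, upper of each pair) and wildtype (blue, lower of each pair), filled where limma's adjusted p is under 0.05. The SNAPs lie below 0 in both lines, from -0.51 to -0.32, and the carbonic anhydrases fall on both sides of 0.

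nerfin-2 had a low signal and exceeded the array median on 0 of 20 arrays. It read 11.2, 15.5, 15.1, 14.7 and 18.0 units on the 20 d null arrays, against 8.84, 13.01, 12.2, 12.7 and 12.2 units on the 20 d wildtype arrays. At 3 d it read 13.3, 11.2, 14.2, 16.9 and 13.9 units on the null arrays, against 11.7, 12.96, 13.9, 14.3 and 12.5 units on the wildtype arrays. The groups overlapped in all 4 comparisons. It did not pass the filter for the limma model, and exact two-sided permutation tests were run in its place, on 5 against 5 arrays.

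Null minus wildtype of nerfin-2 was 0.15 log2 units at 20 d (exact permutation p = 0.0397, 0.159 adjusted over the 4 comparisons) and 0.04 at 3 d (exact permutation p = 0.476, 0.516 adjusted). The difference between 20 d and 3 d was 0.045 in null (exact permutation p = 0.516, 0.516 adjusted) and -0.066 in wildtype (exact permutation p = 0.19, 0.381 adjusted). At signals below the array median these values are given as measured, and none passed the adjusted test without further normalization. The wildtype age difference passed under quantile normalization (-0.17) and median centring (-0.16), each at an adjusted permutation p of 0.0317. Median centring also let the 20 d genotype difference pass, at 0.17 (adjusted permutation p = 0.0476). nerfin-1 was lower still, with means of 6.45 ± 1.71 units in null and 8.56 ± 0.859 in wildtype brains at 20 d, and 6.19 ± 0.919 in null and 8.998 ± 2.34 in wildtype brains at 3 d (SD, n = 5 each). Of 25 neural precursor and nerfin genes with a probe set, 12 passed the filter; 3 were higher and 1 lower in null at 20 d, and 1 higher and 1 lower at 3 d. The shares over all tested probe sets were 20.9% higher and 24.6% lower at 20 d, and 15.4% and 18.4% at 3 d. insc, an adaptor of asymmetric cell division, differed by 0.30 at 20 d and by 0.40 at 3 d between the lines, and rose with age by 0.93 in null and by 1.03 in wildtype (limma adjusted p = 2e-11 and 3.25e-12).

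**Figure D4:**
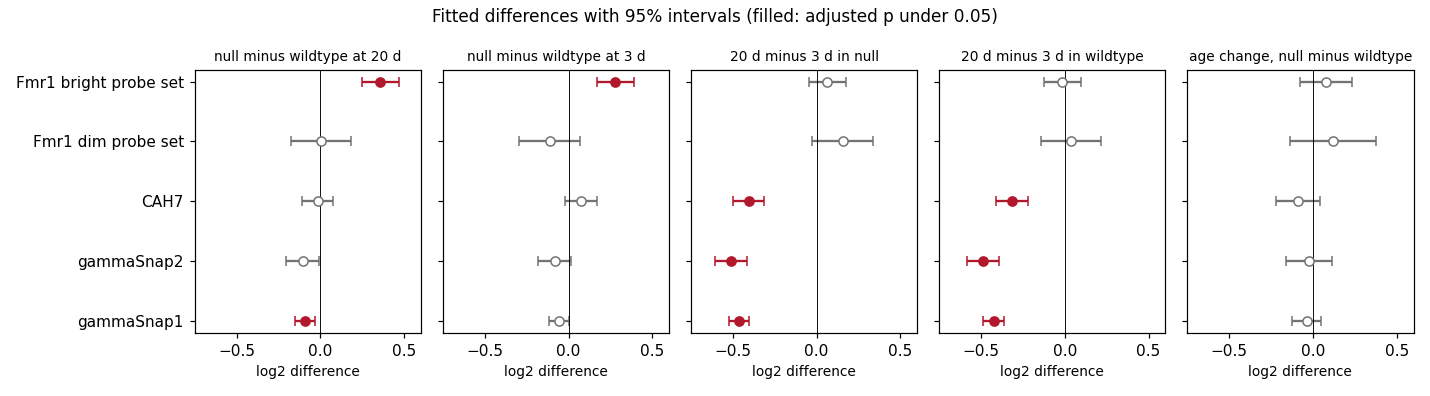
Fitted log2 differences with 95% intervals for the 4 member probe sets in the limma model and for gammaSnap1, in the 5 comparisons, filled where the adjusted p is under 0.05. The bright Fmr1 probe set is alone among the members in the 2 genotype panels, and CAH7 and gammaSnap2 are filled in the 2 age panels.

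The genes next to mir-34 thus differed in which comparisons called them. Over the 20 arrays CAH7 and gammaSnap2 had a Pearson's r of 0.91, which was 0.33 after the group means were taken out, so that most of it came from the ages that both separate. The bright Fmr1 probe set had an r of -0.054 with CAH7 and of -0.20 with gammaSnap2, and of 0.57 with nerfin-2. After the group means were taken out the values were -0.30, 0.19 and 0.32, in the same order. These are descriptions of arrays that share groups, labelling and scaling.

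Among genes represented on the array, the 10 closest before mir-34 and the 10 closest after it were read, and 10 of these 20 passed the filter, 8 after mir-34 and 2 before it. At 20 d Fmr1 and Invadolysin, a metalloprotease, were higher in null and TAF1B and Best1 were lower. At 3 d Fmr1 was higher and TAF1B, CG6254 and Best1 were lower. The differences at 20 d were 0.14 for Invadolysin, -0.13 for TAF1B, a factor of RNA polymerase I, and -0.17 for Best1, a bestrophin chloride channel. At 3 d they were -0.29 for TAF1B, -0.16 for CG6254 and -0.11 for Best1, and Invadolysin was not called at 0.11. Quantile normalization ended the calls of TAF1B at 20 d and of Best1 at 3 d, and median centring that of TAF1B at 20 d. In size Fmr1 had the largest difference of these 10 genes at 20 d, and TAF1B that at 3 d. tws, a PP2A regulatory subunit, and ohgt and CG12811 on the nerfin-2 side were not called at either age. The 8 nearest genes before mir-34, from Alp13 and nerfin-2 to Fancl, were below the filter.

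Genotype calls near mir-34 were counted beside those on the rest of the arm and in all tested genes. With 1 probe set per gene, 47.4% of 7704 tested genes were called at 20 d and 35.0% at 3 d, and on arm 3R 50.7% and 37.7% of 1911. Among the 25 tested genes on each side of mir-34, 27 of 50 were called at 20 d and 19 of 50 at 3 d, which is 54% and 38%. Among the 100 on each side, 99 of 200 were called at 20 d and 72 of 200 at 3 d, which is 49.5% and 36%. Of the 50 genes nearest, 2 differed by 2-fold or more at 20 d and 0 at 3 d, where 2.34% and 2.27% of all tested genes did. Between arms the share called ran from 37.1% on arm 4 and 40.3% on X to 53.6% on 3L at 20 d. No test of position was run, since neighbouring genes are not replicates.

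**Figure D5:**
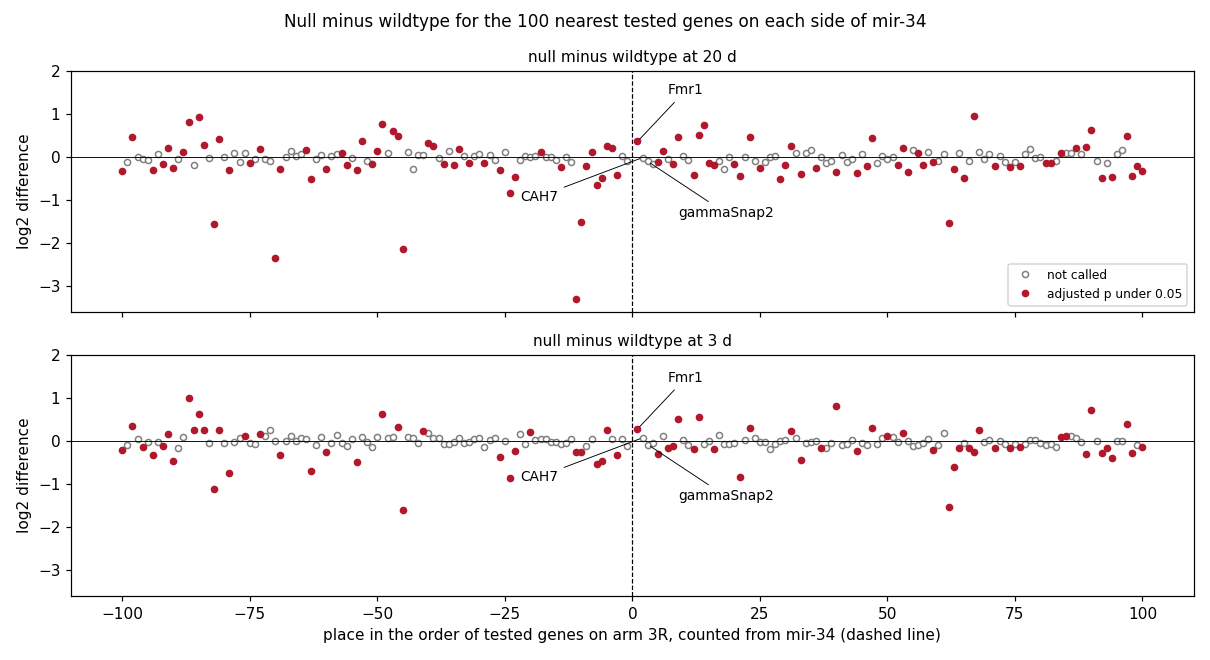
Log2 difference, null minus wildtype, at 20 d (top) and 3 d (bottom) for the 100 nearest tested genes on each side of mir-34 on arm 3R, in gene order, filled where limma's adjusted p is under 0.05. Called genes, 99 at 20 d and 72 at 3 d, are spread over the window, with Fmr1 directly beside the dashed line that marks mir-34.

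The genes whose signal followed the members most closely over the 20 arrays were taken as the 5 with the highest Pearson's r among 8433 candidates for Fmr1 and 8434 for CAH7 and gammaSnap2. For the bright Fmr1 probe set they were Aduk (0.937), Targ1 (0.926), Ac78C (0.925), Svip (0.917) and Diedel (0.912). All 5 were called higher in null at both ages, as were 10.1% of all tested probe sets. For the dim Fmr1 probe set the closest was akirin, at 0.771. For CAH7 they were Men-b (0.985), a malic enzyme, Syngr (0.982), a synaptic vesicle protein, ND-B22 (0.981) and COX5A (0.979), subunits of respiratory complexes I and IV, and Tsp42Ej (0.979), a tetraspanin. For gammaSnap2 they were CG10340 (0.982), Hrb98DE (0.980), an hnRNP, trus (0.977), ND-B17 (0.968) and SdhC (0.966), of complexes I and II. All 5 of CAH7 and all 5 of gammaSnap2 fell with age in both lines, as did 17.8% of all tested probe sets. Genes picked for following a member over these same arrays share its group differences through the picking. Their shared calls are therefore no separate result. For CAH7 the correlations stayed between 0.849 and 0.928 after the group means were taken out, and for gammaSnap2 they ran from 0.45 to 0.779. For the bright Fmr1 probe set they ran from 0.434 to 0.76.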

How the data were processed

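Brain RNA of 20 samples, in 4 groups of 5 taken from the labels, was measured on Affymetrix Drosophila 2 arrays. The authors deposited a single intensity for each probe set on each array, and the submitters' processing notes name MAS5 and GCRMA without their roles. The deposited intensities lay between 0.0116 and 4062, shared a trimmed mean of 150.0 on each array (2% trimmed at each end), and were not normalized again. Other parameters and the build are not given in the sources used here. Precision is limited by 5 arrays per group. Of 18952 probe sets, 183 were controls. Log2(signal + 16) was analysed, and probe sets above their array's median in at least 5 of 20 arrays were kept, which left 9806. The 4 groups entered 1 model (limma 3.58.1, R 4.3.3, moderated with trend and robust settings), with Benjamini-Hochberg adjustment per contrast over 5 contrasts; it was tested on simulated data. Members and gene lists (14 lists, 231 names, 2 not matched) were chosen with earlier results of these data known. Named were the members, the 10 nearest genes on each side, the 5 most similar genes per member probe set, up to 3 called genes of largest change per list and comparison, gammaSnap1 and nerfin-1; futsch and, for age, CAH3 were named after their values were seen. Alternatives were quantile normalization, median centring, pseudocounts of 1 and 64, no filter, a filter of 15 arrays, plain eBayes, fits of 2 groups, the replicate number as a block, and leaving out each array.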

Additional observations from a re-analysis of the deposited data

Results flagged for a closer look

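In 2 of 20 groups of 5 values, 1 array stood apart from the other 4, and chance gives about 1 group in 20. The dim Fmr1 probe set read 18.9 units on 1 of the 3 d wildtype arrays, where the next value was 24.7 and the highest 26.5, so that the gap was 0.766 of the range. nerfin-2 read 8.84 units on 1 of the 20 d wildtype arrays, where the next value was 12.2 and the highest 13.01, a gap of 0.799 of the range. Both probe sets are near or below the array median.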

How the results depend on the processing

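The Fmr1 bright difference between the lines kept its direction and call in all 9 other settings, from 0.34 to 0.38 at 20 d and from 0.26 to 0.29 at 3 d, as did the falls of CAH7 and gammaSnap2 with age. Quantile normalization gave the bright Fmr1 probe set 0.16 (called) and 0.054 with age in null and wildtype, the dim one -0.13 in wildtype, CAH7 0.060 at 3 d and -0.0996 for the interaction (both called), and nerfin-2 -0.0079 at 3 d and -0.17 with age in wildtype (called). Median centring gave CAH7 0.0030 at 20 d, the bright Fmr1 probe set -0.029 with age in null, the dim one -0.062 in wildtype, and nerfin-2 0.17 at 20 d (called), -0.046 with age in null and -0.16 in wildtype (called). With a pseudocount of 1 the bright minus dim difference at 3 d was 0.48 and was no longer called. The cause was not tested. Median centring also lowered the share of age calls that were higher, to 36.0% in null and 34.4% in wildtype (41.2% with quantile normalization), against 55.2% and 55.3%. Leaving out 1 array gave -0.13 to -0.069 for gammaSnap2 between the lines at 20 d and -0.050 to 0.014 for its interaction, -0.051 to 0.0023 for CAH7 at 20 d, -0.038 to 0.0015 for the bright Fmr1 probe set with age in wildtype, -0.025 to 0.039 for the dim one at 20 d, 0.084 to 0.22 with age in null and -0.017 to 0.063 in wildtype, and 0.28 to 0.47 for bright minus dim at 3 d. Same-numbered arrays correlated over 0.1 in 11 of 20 pairs (r from -0.184 to 0.554, 7 of 20 best with their own number), replicate 1 in all 4 comparisons. Not every pair did, so the numbers were not taken to pair the arrays. With the replicate block 4619 probe sets were called at 20 d, 3463 at 3 d, 5899 and 5629 with age in null and wildtype, and 1716 in the interaction, and no member's limma call changed. Bright minus dim was 0.35 and 0.39 with the block, at an adjusted p of 0.0625, the smallest that 5 pairs allow. Of 616 list counts in other settings, 53 moved by over 1.5 times. Signals near the array median limit what the dim Fmr1 and nerfin-2 probe sets can show.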
